A study of Populus deltoides with 12 samples.

Results

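The comparison F_G vs. G sets the green leaves of the *Populus deltoides* cultivar ZSY (F_G) against the green leaves of the cultivar L2025 (G), with leaf color the same on both sides and the cultivar different. Its members are all genes measured by RNA-seq in the 3 F_G and the 3 G libraries, which are 6 of the 12 libraries of the study. Of the 46170 genes in the deposited tables, 26789 were tested, those with 1 FPKM or more in 3 or more of the 6 libraries, and 19381 were not. FPKM is the number of sequenced fragments of a gene scaled to the length of its transcript and to the size of the library.

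ZSY bears purple leaves and green leaves, and F_G were fully expanded green leaves of this cultivar. G were mature leaves of L2025, also fully expanded, at the fourth and the fifth position, and the position of the F_G leaves taken for RNA-seq is not given. For the anthocyanin assay of the same study, leaves of all 3 cultivars were taken at the third to the fifth position. All plants were 2-year-old field-grown seedlings, labelled WT, and a difference in leaf position, if there was one, cannot be told apart from the cultivar. The other 6 libraries hold purple leaves of ZSY (F_P) and purple leaves of the cultivar QHP (P), at 3 biological replicates per group. According to the study, ZSY and QHP were both cultivated from L2025. It is not stated whether each replicate was a separate plant, so that p-values measure the spread between these samples.

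Anthocyanins, flavonols and proanthocyanidins share the flavonoid pathway, in which chalcone synthase (CHS) makes the first committed product and flavanone 3-hydroxylase (F3H) makes dihydroflavonols. Dihydroflavonol reductase (DFR), anthocyanidin synthase (ANS) and UDP-glucose flavonoid glucosyltransferase (UFGT) then lead to stable anthocyanins, whereas flavonol synthase (FLS) draws the same dihydroflavonols towards flavonols. In a green leaf, transcripts of the light-harvesting antenna proteins and of the photosystems are usually among the most abundant, and MYB and bHLH transcription factors control many of the flavonoid genes.

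Depth on annotated genes was 14543579 to 15858408 fragments in F_G and 14940024 to 15982748 fragments in G, counted back from FPKM with the exon length of each gene. The library size used for FPKM was 1.03 to 1.05 times the counted fragments in F_G and 0.942 to 0.966 times in G. Across genes, r of log2(FPKM + 1) lay between 0.972 and 0.976 for pairs of F_G libraries, between 0.971 and 0.985 for pairs of G libraries, and between 0.844 and 0.861 for pairs of an F_G and a G library. In a principal component analysis of all 12 libraries the first component, with 61.5% of the variance, placed F_G at 10.2 to 11.3, G at 125 to 127, F_P at -94.3 to -93.6 and P at -43.1 to -41.9. The second component, with 15.8%, placed F_G at -73.7 to -62.4 and G at 29.2 to 32.6. F_P lay at 29.9 to 30.9 and P at 6.58 to 8.65 on it.

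A total of 5332 genes were differentially expressed (DEGs) in F_G vs. G, 19.9% of the genes tested. Of these, 2506 (9.35%) were higher and 2826 (10.5%) were lower in F_G. The test was limma on log2(FPKM + 1) with Benjamini-Hochberg adjustment over all genes tested, and DEGs were genes whose adjusted p did not exceed 0.05 and whose log2 fold change was 1 or more in size. Fold changes on this scale are understated for genes with low FPKM. The log2 fold change had a median of -0.04 and quartiles of -0.48 and 0.37 over all genes tested, and the median size in DEGs was 1.45. In 5286 of the 5332 DEGs the F_G and G libraries did not overlap, as against 58.2% of all genes tested. A log2 fold change of 2 or more in size was reached by 1182 DEGs, 568 higher and 614 lower in F_G.

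**Figure D1:**
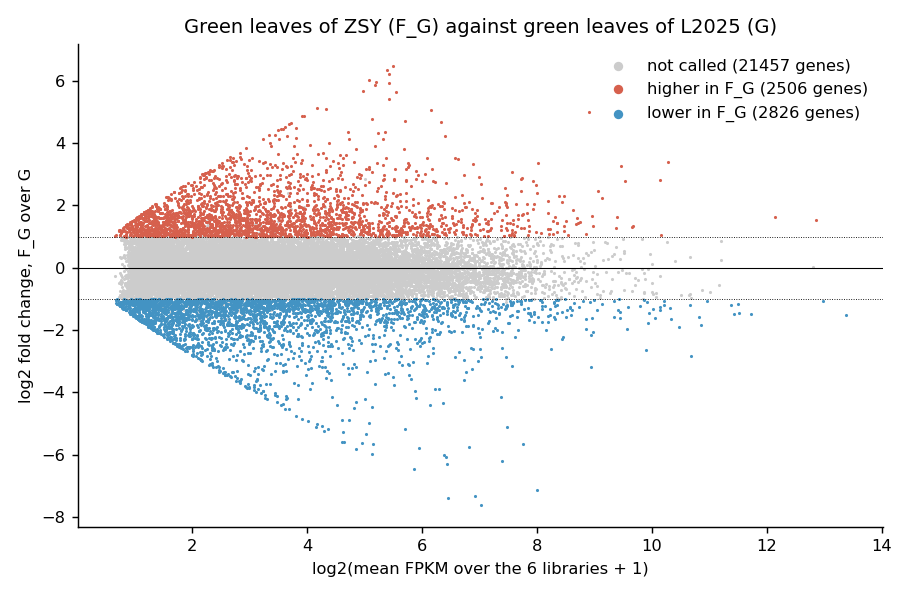
Log2 fold change of F_G over G (vertical axis) against log2 of the mean FPKM over the 6 libraries plus 1 (horizontal axis), 1 point per gene tested; dotted lines mark the minimum fold change. The 2506 genes higher and the 2826 genes lower in F_G lie at all levels, and at the right end lower genes prevail.

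The share of DEGs varied with the level of the gene. Of the 11269 genes with a mean of 10 to 100 FPKM over the 6 libraries, 16.5% were DEGs, 8.01% higher and 8.45% lower in F_G. Of the 46 genes with a mean of at least 1000 FPKM, 5 were higher and 21 were lower in F_G, and their median log2 fold change was -0.92. Of these 46 genes, 15 were in the lists of antenna proteins or photosynthesis described next, with 8 lower and 0 higher in F_G, and of the other 31 genes 13 were lower and 5 were higher.

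More photosynthesis genes were lower than higher in F_G. Of the 23 genes listed as photosynthesis antenna proteins, which bind chlorophyll and collect light for the photosystems, 14 were lower in F_G, 0 were higher and 9 were not DEGs, against 10.5% lower over all genes tested. The median log2 fold change of the list was -1.15. This list and the other pathway lists hold the genes that could be read in the study's pathway tables, and they were chosen there as changed in F_P vs. F_G or P vs. G, which share the F_G or the G libraries. The lists are therefore not independent evidence, they cover only part of each pathway, and their counts stand as a description beside the shares over all genes. Where a gene is given below as the largest rise or fall of a list, it is so among DEGs of the list that averaged 10 FPKM or more and did not overlap between the groups. In fits without 1 library, a gene that reached 1 FPKM in only 3 libraries, the left-out one among them, was no longer tested. Medians and counts of such fits can therefore cover fewer genes of a list.

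The antenna protein gene with the highest mean, *Podel.05G255100* (chromosome 5, 25102278 to 25103057), had 1603, 1663 and 2031 FPKM in F_G, against 5206, 5111 and 4520 FPKM in G. Its log2 fold change was -1.49 (SE 0.12, adjusted p = 3.48e-05), and all 3 F_G libraries were below all 3 G libraries. The largest fall in the list was found for *Podel.02G209300*, with 8.23, 5.05 and 5.04 FPKM in F_G and 31.8, 27.5 and 24.9 FPKM in G (log2 fold change -2.06). Summed over the 23 genes, the antenna proteins reached 9340 to 10910 FPKM in F_G, against 20767 to 23791 FPKM in G. They reached 7392 to 7604 FPKM in F_P and 6131 to 6557 FPKM in P, so that the G libraries were the highest. Less RNA per cell and fewer cells of a type cannot be told apart in these leaf samples.

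The photosynthesis list, with subunits of the photosystems and of electron transport, contained 39 tested genes of 47, of which 19 were lower in F_G, 6 were higher and 14 were not DEGs, with a median log2 fold change of -1.0. Its summed level was 11839 to 13227 FPKM in F_G and 26202 to 27586 FPKM in G, with 8810 to 8837 FPKM in F_P and 9339 to 9383 FPKM in P. The most abundant member, *Podel.01G460100*, had 1579, 1830 and 1916 FPKM in F_G and 4154, 4193 and 3657 FPKM in G (log2 fold change -1.17, adjusted p = 7.4e-05). The largest fall was found for *Podel.02G264100* on chromosome 2 (24637998 to 24639006), which had 1.46, 0.0750 and 2.84 FPKM in F_G and 129, 126 and 105 FPKM in G. These values rest on 1 to 35 fragments per library in F_G and 1247 to 1562 in G. The largest rise was that of *Podel.01G460200*, with 25.0, 24.6 and 34.4 FPKM in F_G and 6.34, 5.04 and 2.51 FPKM in G (log2 fold change 2.41). This gene overlaps another gene in the annotation, and its reads may be shared with it.

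Genes for pigments of the chloroplast were more often lower than higher in F_G. The pigment contents measured by the study are not set beside these transcript levels. Its text and its supplement give the same ratios between purple and green leaves under different cultivars. Of 30 genes of porphyrin and chlorophyll metabolism, 12 were lower, 2 were higher and 16 were not DEGs (median log2 fold change -0.34). The median of this list was -0.20 without F_G replicate 1, -0.54 with a pseudocount of 0.1 and -0.57 with voom. *Podel.01G267400* had the largest fall of this list, with 4.58, 3.43 and 3.28 FPKM in F_G and 23.4, 22.8 and 26.4 FPKM in G. *Podel.03G128000* had the largest rise, with 30.5, 27.8 and 23.5 FPKM in F_G and 10.5, 9.54 and 9.53 FPKM in G. Of 20 tested genes of carotenoid biosynthesis, 6 were lower and 2 were higher (median -0.68, and -0.34 to -0.28 with a G library left out), and 13 were DEGs with a pseudocount of 0.1 or with voom. Among these, *Podel.01G417400* fell by 1.85 on the log2 scale, with 3.22, 4.54 and 5.90 FPKM in F_G and 17.7, 18.5 and 19.9 FPKM in G. *Podel.04G242000* rose by 1.74, with 36.5, 38.9 and 39.2 FPKM in F_G and 13.1, 10.2 and 9.18 FPKM in G.

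Lists that report on the state of the leaf also differed between the groups. The DNA replication list, which marks dividing cells, summed to 157 to 181 FPKM in F_G and 205 to 252 FPKM in G. Of its 19 tested genes, 6 were lower, 1 was higher and 12 were not DEGs in F_G, with a median log2 fold change of -0.77. Without G replicate 3 the list had 4 DEGs, and with a pseudocount of 0.1 and with voom it had 11 and 12 DEGs and medians of -1.23 and -1.32. Its most abundant gene, *Podel.17G013700*, had 117, 116 and 96.3 FPKM in F_G and 118, 123 and 158 FPKM in G and was not a DEG. The list of microtubule motor activity, which includes kinesins used in cell division and transport, summed to 126 to 147 FPKM in F_G and 232 to 247 FPKM in G. In this list 9 of 33 genes were lower and 0 were higher in F_G (median -0.82). Without G replicate 3 there were 4 DEGs, and with a pseudocount of 0.1 and with voom there were 19 and 20. Its most abundant gene, *Podel.01G244200*, had 18.1, 15.0 and 16.0 FPKM in F_G and 32.3, 34.7 and 34.7 FPKM in G, with a log2 fold change of -1.01. *Podel.01G244200* was not a DEG, at -0.99 to -0.88, with either other scaling and without F_G replicate 2, F_G replicate 3, G replicate 2 or G replicate 3. *Podel.04G165000* had the largest fall in this list, with 9.45, 9.93 and 8.70 FPKM in F_G and 20.3, 20.8 and 20.4 FPKM in G, and was not a DEG with scaling by library totals (-0.93).

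The list of cutin, suberine and wax biosynthesis, of which cutin and wax cover the leaf surface, summed to 186 to 213 FPKM in F_G and 368 to 397 FPKM in G. Of its 17 tested genes of 26, 9 were lower, 2 were higher and 6 were not DEGs in F_G (median -1.11). This median was -0.46, -0.71 and -0.36 without G replicate 1, 2 and 3, and -0.15 with no filter on low values. *Podel.08G032700* had 2.83, 3.27 and 2.19 FPKM in F_G and 30.3, 31.1 and 34.7 FPKM in G (log2 fold change -3.14, adjusted p = 2.28e-06). *Podel.02G044500*, the most abundant gene of the list, had 70.7, 71.2 and 60.3 FPKM in F_G and 140, 132 and 168 FPKM in G, and was not a DEG with scaling by library totals (-0.97). In the opposite direction, *Podel.05G233000* had 41.0, 39.9 and 32.2 FPKM in F_G and 7.16, 9.05 and 8.18 FPKM in G. The part of these leaf states in the other differences was not tested.

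**Figure D2:**
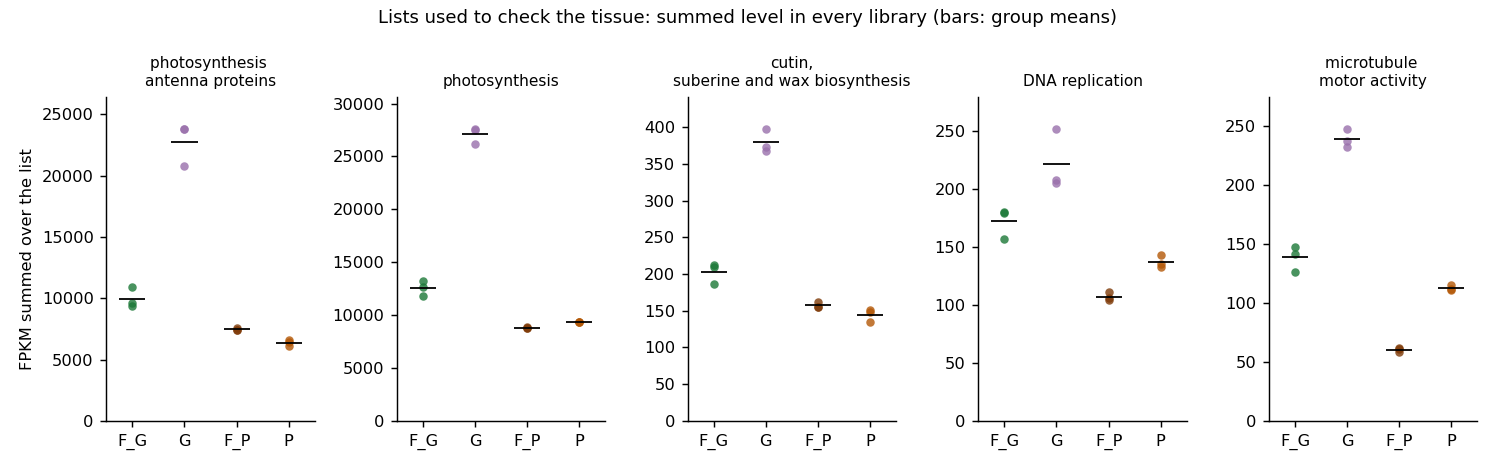
FPKM summed over the genes of 5 lists (vertical axes, starting at 0) in every library of F_G, G, F_P and P; points are libraries and bars are group means. In each list the 3 F_G libraries lie below the 3 G libraries and above the F_P and P libraries. The antenna proteins sum to 9340 to 10910 FPKM in F_G against 20767 to 23791 FPKM in G.

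The structural genes of the anthocyanin and flavonol pathway moved in both directions. Of the 37 structural genes named by the study, 32 were tested, of which 5 were higher and 8 were lower in F_G and 19 were not DEGs, with a median log2 fold change of -0.17. This median was -0.01 without G replicate 1, -0.03 with scaling by library totals and -0.08 with no filter. The share of DEGs, 40.6% of the 32, stands beside 19.9% of all genes tested. The study chose these genes on the purple and green leaves of these libraries. *PdeUFGT3*, *PdeF3'H3*, *PdeFLS1* and *PdeFLS3* were below the minimum level, and *PdeUFGT7* was listed at 0 in all 6 libraries.

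On the log2(FPKM + 1) scale the largest differences were found in FLS genes, and in opposite directions. This scale understates genes at low FPKM, such as *PdeUFGT2*, *PdeCHS5* and *PdeF3H1* below. *PdeFLS2* (chromosome 4, 15875185 to 15877294) had 18.3, 17.3 and 16.9 FPKM in F_G, against 109, 108 and 96.2 FPKM in G, with a log2 fold change of -2.51 (SE 0.08, adjusted p = 6.42e-07). *PdeFLS4* (chromosome 7, 15689992 to 15691517) had 30.7, 35.0 and 31.8 FPKM in F_G, against 5.63, 6.46 and 6.57 FPKM in G, with a log2 fold change of 2.21 (SE 0.10, adjusted p = 2.87e-06). The F_G and G libraries did not overlap in either gene. *PdeFLS4* overlaps another annotated gene, and the 2 remaining members were not tested, with at most 0.816 FPKM in F_G and at most 0.532 FPKM in G.

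The early steps after CHS also held genes that differed. *PdeF3H1* was lower in F_G, with 2.39, 1.48 and 2.04 FPKM in F_G and 11.8, 11.4 and 13.0 FPKM in G (log2 fold change -2.14, adjusted p = 2.33e-05). *PdeF3H4* had 1.09, 1.42 and 1.75 FPKM in F_G and 3.23, 3.69 and 5.71 FPKM in G (log2 fold change -1.09). *PdeF3H4* was no longer a DEG without F_G replicate 1 (-0.99), without G replicate 3 (-0.89) or with scaling by library totals (-0.99). The most abundant member, *PdeF3H2*, had 122, 118 and 119 FPKM in F_G and 76.5, 73.5 and 71.8 FPKM in G, a difference of 0.69 below the minimum fold change at an adjusted p of 7.3e-05.

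The flavonoid 3',5'-hydroxylase genes, whose products add hydroxyl groups to the B ring, had opposite directions. *PdeF3'5'H1* had 1.93, 3.47 and 2.07 FPKM in F_G and 8.36, 5.90 and 8.02 FPKM in G (log2 fold change -1.29). *PdeF3'5'H2*, which lies between *PdeF3H1* and *PdeF3H2* on chromosome 5 (9507095 to 9509452), had 5.92, 5.31 and 5.64 FPKM in F_G and 2.16, 1.10 and 0.548 FPKM in G (log2 fold change 1.61, adjusted p = 0.00132). The flavonoid 3'-hydroxylase gene with the highest level, *PdeF3'H1*, had 133, 130 and 145 FPKM in F_G and 164, 157 and 120 FPKM in G, and these libraries overlapped.

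Of the CHS genes, *PdeCHS5* was lower in F_G, with 0.637, 0.462 and 0.227 FPKM in F_G and 3.19, 3.26 and 3.15 FPKM in G, which is 5 to 14 fragments per library in F_G and 66 to 69 in G. The CHS gene with the highest level, *PdeCHS2*, had 167, 183 and 181 FPKM in F_G and 142, 139 and 127 FPKM in G, a log2 difference of 0.38 (adjusted p = 0.00336) that did not reach the minimum fold change. *PdeDFR*, the single DFR gene of the list, had 16.6, 18.0 and 13.8 FPKM in F_G and 13.0, 12.5 and 15.9 FPKM in G (log2 fold change 0.21, SE 0.13, adjusted p = 0.234). Among the ANS genes, *PdeANS4* was lower in F_G, with 1.70, 0.991 and 2.40 FPKM in F_G and 7.72, 7.82 and 7.11 FPKM in G (log2 fold change -1.70). *PdeANS1* and *PdeANS2* had log2 fold changes of -0.99 and -0.98 just short of the minimum, at adjusted p of 0.0058 and 0.00173. *PdeANS1* passed with a pseudocount of 0.1, with voom and without F_G replicate 1, F_G replicate 3 or G replicate 3 (-1.14 to -1.08), and *PdeANS2* with a pseudocount of 0.1, with voom and without F_G replicate 3 or G replicate 2 (-1.51 to -1.02).

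The UFGT genes, whose products attach glucose to anthocyanidins, contributed 3 genes higher and 2 lower in F_G. *PdeUFGT9* (chromosome 7, 15636991 to 15640078) had 81.0, 79.6 and 92.1 FPKM in F_G and 41.8, 39.1 and 34.9 FPKM in G (log2 fold change 1.11, SE 0.09, adjusted p = 5.17e-05). Its neighbour *PdeUFGT5* had 69.2, 80.9 and 76.8 FPKM in F_G and 47.0, 48.7 and 37.9 FPKM in G, a log2 difference of 0.76. Neighbouring members of a gene family may share reads, and how such reads were counted is not given in the sources used here. *PdeUFGT4* had 24.8, 25.7 and 29.2 FPKM in F_G and 11.4, 10.6 and 7.11 FPKM in G (log2 fold change 1.39). *PdeUFGT11* had 4.03, 2.61 and 8.75 FPKM in F_G and 0.666, 1.81 and 0.156 FPKM in G (log2 fold change 1.68, SE 0.43, adjusted p = 0.0129), the widest spread among the called structural genes, and it overlaps another annotated gene.

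Both UFGT genes that were lower in F_G were clearly separated between the groups. *PdeUFGT6* had 9.79, 8.42 and 9.44 FPKM in F_G and 31.9, 34.4 and 33.6 FPKM in G (log2 fold change -1.75, adjusted p = 5.22e-06). *PdeUFGT2* was at 0, 0 and 0.0398 FPKM in F_G and at 2.63, 3.94 and 3.87 FPKM in G, with at most 1 fragment per F_G library and 65 to 94 fragments per G library.

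**Figure D3:**
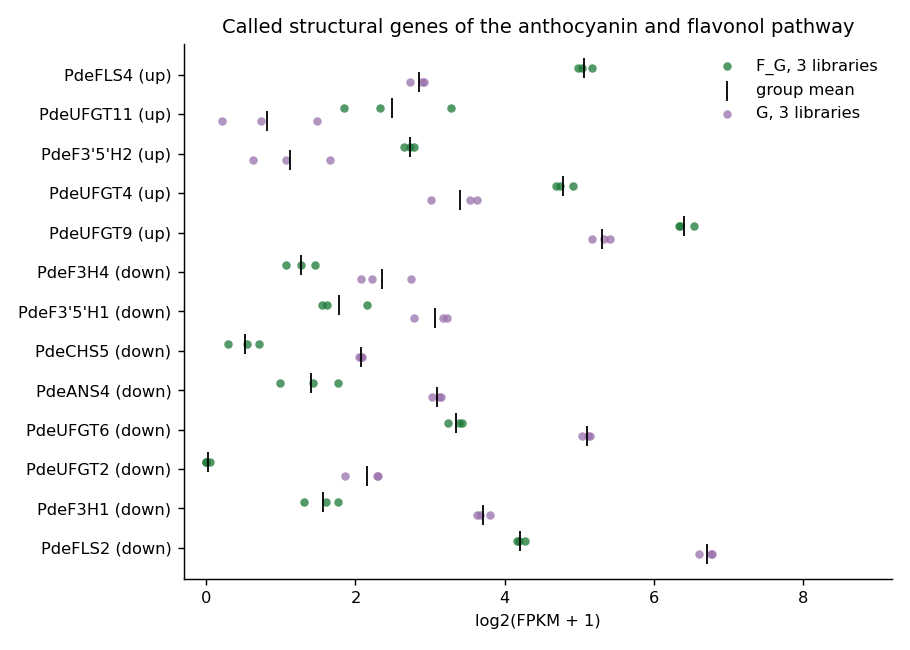
Log2(FPKM + 1) (horizontal axis) of the 13 structural genes that were DEGs in F_G vs. G, with 1 point per library for F_G and G and a tick at the group mean. The F_G and G points of each gene do not overlap, and *PdeUFGT11* has the widest spread.

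Of the transcription factor genes that the study related to anthocyanins, *PdeMYB1* had 11.4, 10.9 and 11.3 FPKM in F_G and 5.92, 5.62 and 4.45 FPKM in G. The groups did not overlap, and the log2 fold change of 0.96 (SE 0.13, adjusted p = 0.000595) was just below the minimum for a DEG. It was 1.07 with a pseudocount of 0.1 or with scaling by library totals, 1.08 with voom and 1.02 without G replicate 1, above the minimum. *PdeMYB2* had 121, 120 and 99.3 FPKM in F_G and 96.7, 112 and 108 FPKM in G (log2 fold change 0.10, SE 0.10, adjusted p = 0.453), and its libraries overlapped.

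Of 11 listed MYB genes, 2 were higher, 3 were lower and 6 were not DEGs (median -0.54). Over all genes tested, 9.35% were higher and 10.5% were lower. The study chose the MYB and bHLH genes as changed between purple and green leaves of these libraries and related to anthocyanins, so the counts are a description. The largest change was that of *Podel.02G040700*, with 102, 91.3 and 81.7 FPKM in F_G and 13.0, 11.1 and 12.2 FPKM in G (log2 fold change 2.82, SE 0.10, adjusted p = 1.1e-06). *Podel.08G221200* was higher in F_G too (1.43). *Podel.07G028800* was the most abundant of the lower ones, with 183, 192 and 206 FPKM in F_G and 460, 484 and 342 FPKM in G. *Podel.07G028800* overlaps another annotated gene and was not a DEG with scaling by library totals (-0.99). *Podel.06G163300* and *Podel.17G037900* had log2 fold changes of -1.63 and -1.15, and *Podel.17G037900* was at -0.96, not a DEG, without F_G replicate 1.

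Of 11 listed bHLH genes, 2 were higher, 5 were lower and 4 were not DEGs (median -0.93), beside 9.35% higher and 10.5% lower over all genes tested. The lower ones were *Podel.03G099000* (-2.16), *Podel.07G028600* (-1.55), *Podel.02G199200* (-1.49), *Podel.01G333900* (-1.35) and *Podel.04G160100* (-1.28), given as log2 fold changes of F_G over G. *Podel.03G099000* had 11.1, 15.0 and 10.1 FPKM in F_G and 53.4, 53.4 and 63.9 FPKM in G. *Podel.15G110700* (1.54) and *Podel.01G109500* (1.37) were higher in F_G.

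The wider flavonoid and phenylpropanoid lists also held DEGs. Of 41 tested genes of flavonoid biosynthesis, 16 were lower, 5 were higher and 20 were not DEGs in F_G (median -0.40). With G replicate 1, 2 or 3 left out this list had 10 or 11 DEGs and a positive median (0.06, 0.04 and 0.11). Genes that reached 1 FPKM in G alone were then not tested, so that these medians cover fewer genes of the list. With no filter the median was -0.34. *Podel.03G198600* had 95.7, 90.0 and 98.4 FPKM in F_G and 27.6, 25.3 and 26.5 FPKM in G (log2 fold change 1.80, SE 0.07). Of 52 genes of phenylpropanoid biosynthesis, the route to lignin and to the precursors of flavonoids, 17 were higher, 22 were lower and 13 were not DEGs, so that 75.0% were DEGs while the median was -0.05. This median was positive with both other scalings and without G replicate 2 or 3, at 0.00 to 0.09. *Podel.07G018500* had 35.9, 34.9 and 34.5 FPKM in F_G and 3.64, 2.84 and 2.85 FPKM in G (log2 fold change 3.14). *Podel.02G017400* had 0.386, 1.27 and 0 FPKM in F_G and 26.7, 26.6 and 25.2 FPKM in G.

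Genes of defense were more often higher than lower in F_G. Of 36 tested genes of the list ADP binding, a function common among plant resistance proteins, 19 were higher, 9 were lower and 8 were not DEGs, with a median log2 fold change of 1.06 (1.59 without G replicate 3). Summed over the 42 genes of the list, ADP binding reached 818 to 888 FPKM in F_G and 223 to 258 FPKM in G. It reached 748 to 760 FPKM in F_P and 815 to 883 FPKM in P, so that the G libraries were the lowest. Of 59 tested genes of plant-pathogen interaction, 25 were higher, 7 were lower and 27 were not DEGs (median 0.51). Over all genes tested, 9.35% were higher. *Podel.01G144900* (chromosome 1, 11792576 to 11795682), which is in both lists, had 36.8, 41.2 and 36.9 FPKM in F_G and 1.62, 1.62 and 1.15 FPKM in G, with a log2 fold change of 4.00 (SE 0.13, adjusted p = 6.19e-07). *Podel.06G230300* had the largest fall in plant-pathogen interaction, with 7.78, 9.62 and 13.7 FPKM in F_G and 110, 107 and 72.2 FPKM in G.

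Nitrogen and hormone genes also differed. Of 27 tested genes of nitrogen metabolism, 11 were higher, 5 were lower and 11 were not DEGs (median 0.58). This median was 0.09 to 0.24 with an F_G library left out and 0.22 with no filter, and the summed level of the list was the other way round, at 3648 to 3956 FPKM in F_G and 5942 to 6744 FPKM in G. *Podel.02G096300* had 48.9, 43.6 and 54.7 FPKM in F_G and 1.87, 1.70 and 2.06 FPKM in G (log2 fold change 4.12, SE 0.12, adjusted p = 4.83e-07). *Podel.10G024300* was lower, with 117, 115 and 134 FPKM in F_G and 353, 357 and 325 FPKM in G. Of 60 tested genes of plant hormone signal transduction, 17 were higher, 11 were lower and 32 were not DEGs (median 0.08, 0.02 without F_G replicate 2 or 3, 0.15 without G replicate 1, -0.000998 without G replicate 3, and 0.12 and 0.21 with the other scalings). *Podel.03G179200* had 27.3, 28.3 and 22.7 FPKM in F_G and 1.75, 1.26 and 1.87 FPKM in G (log2 fold change 3.37). *Podel.05G231000* had 5.99, 6.59 and 9.33 FPKM in F_G and 37.8, 39.7 and 20.8 FPKM in G, with G replicate 3 the lowest of its group.

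In starch and sucrose metabolism, 8 of 47 tested genes were higher, 12 were lower and 27 were not DEGs (median -0.24, and -0.13 without G replicate 1, -0.12 with scaling by library totals and -0.11 with no filter). *Podel.08G094600* had 74.8, 72.9 and 67.6 FPKM in F_G and 6.07, 5.81 and 7.16 FPKM in G (log2 fold change 3.31). *Podel.01G095700* had 6.21, 6.53 and 5.33 FPKM in F_G and 71.7, 73.4 and 76.0 FPKM in G (log2 fold change -3.41), and it averaged 0.00797 FPKM in F_P and 0.217 FPKM in P.

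The lists of protein processing in the endoplasmic reticulum, circadian rhythm and ribosome biogenesis were closer to the shares over all genes. Their counts were 7 higher and 6 lower of 47, 1 higher and 3 lower of 19, and 1 higher and 2 lower of 20 tested genes, with medians of 0.23, -0.09 and 0.43. The circadian rhythm list includes *PdeCHS1* to *PdeCHS6*, and *PdeCHS2* was its most abundant gene. Its counts therefore overlap those of the structural and flavonoid lists. Its 3 lower genes were *PdeCHS5*, *Podel.03G190100* and *Podel.03G190300*, which are also near each other on chromosome 3. The median of circadian rhythm turned positive with scaling by library totals (0.03) and without G replicate 1 or 2 (0.06 and 0.03). With any G library left out, 1 gene of this list was a DEG. Ribosome biogenesis had 5 DEGs with voom. *Podel.10G198400*, in protein processing, had 136, 148 and 119 FPKM in F_G and 29.3, 33.2 and 30.8 FPKM in G. *Podel.08G067300* of the same list had 4.42, 4.35 and 6.55 FPKM in F_G and 16.3, 15.8 and 15.4 FPKM in G. *Podel.10G065800*, in circadian rhythm, had 27.6, 24.0 and 23.5 FPKM in F_G and 9.39, 9.64 and 12.1 FPKM in G.

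**Figure D4:**
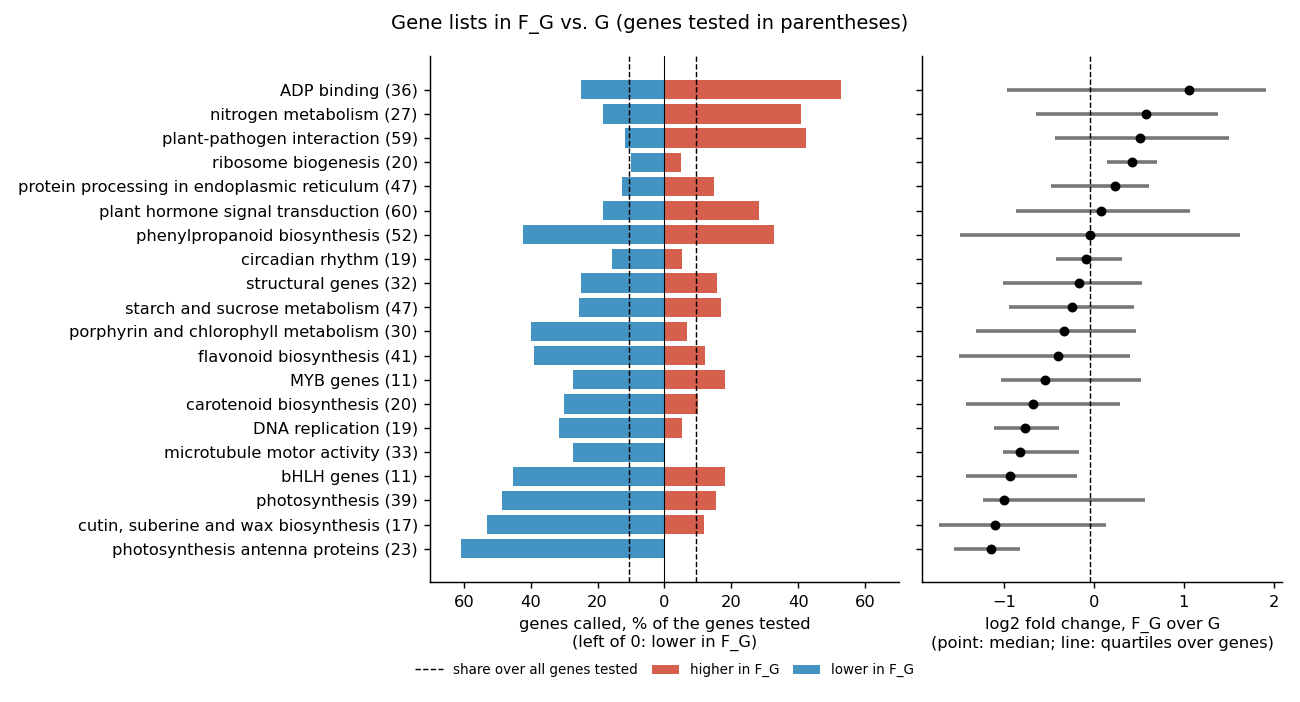
Left, genes higher (right of 0) and lower (left of 0) in F_G as a percentage of the tested genes of each list, with dashed lines at 9.35% and 10.5% for all genes tested; right, median (point) and quartiles over genes (line) of the log2 fold change of F_G over G. The antenna proteins, with a median of -1.15, are at the bottom and ADP binding, with a median of 1.06, is at the top.

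Some genes were detected in the green leaves of only 1 of the 2 cultivars. At 0 FPKM in all 3 G libraries and at least 1 FPKM in all 3 F_G libraries were 92 genes, of which 73 are annotated. At 0 in all 3 F_G libraries and at least 1 FPKM in all 3 G libraries were 137 genes, of which 114 are annotated. The F_P and P libraries did not enter this selection. Of the 92 genes seen in F_G and not in G, 55 reached 1 FPKM in all 6 F_P and P libraries, and 0 were at 0 in all 6. Of the 137 genes seen in G and not in F_G, 1 reached 1 FPKM in all 6 F_P and P libraries, and 94 were at 0 in all 6. In these 94 genes the L2025 libraries were therefore the only ones of the 4 groups with reads.

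*Podel.T105000*, on an unplaced scaffold, had 55.6 to 70.2 FPKM in F_G (1814 to 2477 fragments) and was at 0 in G, at least 652-fold higher in F_G against a floor of 3 fragments per library. It had 97.8 to 108 FPKM in F_P and 76.0 to 83.9 FPKM in P. *Podel.17G006300* (chromosome 17, 546409 to 548922) was at 0 in F_G and had 49.8 to 65.6 FPKM in G (1102 to 1500 fragments), at least 436-fold lower in F_G, with at most 0.0404 FPKM in F_P and 0 in P. Both were singled out after their values were seen, as the annotated genes with the highest level in their set.

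Over all genes that averaged 10 FPKM or more, both genes with the largest rise lay outside the annotation. The first had 84.3, 88.9 and 91.4 FPKM in F_G and was listed at 0 in all 3 G libraries. The next had 74.5, 75.4 and 96.5 FPKM in F_G and 0.0333, 0 and 0 FPKM in G. The largest falls were those of *Podel.13G181500* (chromosome 13, 15993506 to 15993796), with 0, 1.24 and 0 FPKM in F_G and 273, 281 and 215 FPKM in G, and of a gene outside the annotation that was listed at 0 in all F_G libraries and had 204, 191 and 121 FPKM in G. Both of these were also at 0 in all F_P and P libraries, whereas the gene with the largest rise averaged 91.2 FPKM in F_P and 51.0 FPKM in P.

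DEGs were found on all 19 chromosomes. The share of DEGs lay between 16.1% on chromosome 13 and 24.5% on chromosome 19, and was 37.5% of 797 tested genes on unplaced scaffolds and 30.6% of 540 tested genes outside the annotation. In windows of 50 consecutive tested genes, the median log2 fold change had quartiles of -0.12 and 0.04 over 989 windows. It was at least 0.5 in 3 windows and in 0 windows at most -0.5. A typical window held 4 genes higher and 5 genes lower in F_G.

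The 3 windows were on chromosomes 13, 19 and 12. On chromosome 12, between 822434 and 1616147, the median was 0.55, with 18 genes higher and 4 lower in F_G. In this window the median deviation of a library from the 12-library mean was 0.13 to 0.22 on the log2 scale in F_G and -0.49 to -0.34 in G, with 0.13 to 0.24 in F_P and 0.03 to 0.14 in P. At the start of chromosome 19, between 125978 and 1307547, the median was 0.66, with 16 genes higher and 4 lower. There the deviations were 0.07 to 0.18 in F_G and -0.35 to -0.20 in G.

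On chromosome 13, between 14820279 and 15851038, the median was the highest (0.78), but only 9 genes were higher and 2 lower in F_G. The G libraries were spread in this window, at 0.45, 0.18 and -0.19, and F_G libraries were at 0.48, 0.74 and 0.66. The windows with the most lower genes were on chromosome 6, with 16 between 2005190 and 2517222 and 15 between 23428631 and 24021355.

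The purple leaves give a second comparison of ZSY with another cultivar, F_P vs. P, which shares no library with F_G vs. G but has QHP as its other side. In F_P vs. P, 2619 of 24752 genes tested were DEGs (10.6%), 1250 higher (5.05%) and 1369 lower (5.53%) in F_P. Of the 5332 DEGs of F_G vs. G, 4043 were tested in F_P vs. P. Among these, 452 were higher in both comparisons and 409 were lower in both, which is 21.3% of the 4043 and 32.9% of the DEGs of F_P vs. P. Opposite directions were found for 185 genes, 132 of them higher in F_G and lower in F_P. A further 1775 genes higher and 1222 genes lower in F_G were not DEGs in F_P vs. P. Of the 1289 DEGs too low to be tested in purple leaves, 1142 were lower and 147 were higher in F_G. Across the 23660 genes tested in both, r of the log2 fold changes was 0.28, given as a description, as ZSY is on the same side in both.

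**Figure D5:**
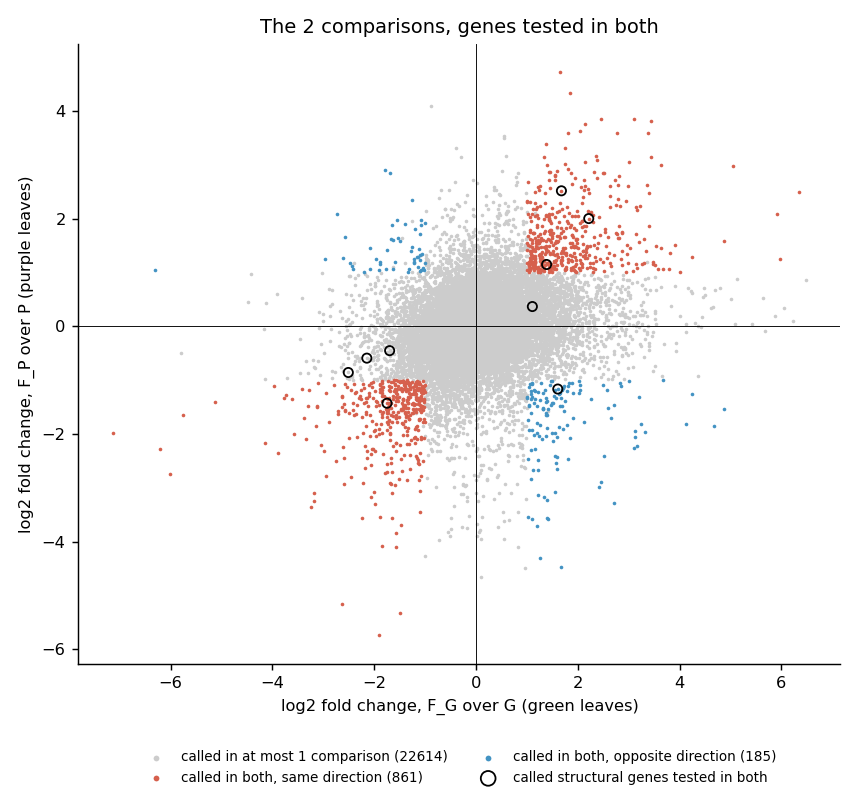
Log2 fold change of F_P over P (vertical axis) against that of F_G over G (horizontal axis) for the 23660 genes tested in both; red points were DEGs in both in the same direction (861), blue points in opposite directions (185), and circles are structural genes that were DEGs in F_G vs. G. Most colored points lie in the lower left and upper right quadrants.

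Among the structural genes, *PdeFLS4* (2.21 in F_G vs. G and 2.00 in F_P vs. P), *PdeUFGT4* (1.39 and 1.15) and *PdeUFGT11* (1.68 and 2.52) were higher in ZSY in both comparisons, and *PdeUFGT6* (-1.75 and -1.43) was lower in both, all as log2 fold changes. The difference between the comparisons was not called for these 4 genes (0.21, 0.24, -0.84 and -0.32, adjusted p of 0.181, 0.326, 0.237 and 0.13). *PdeF3'5'H2* was higher in F_G and lower in F_P (1.61 and -1.17), and the difference of 2.77 was called (adjusted p = 9.86e-05). *PdeMYB1* had 0.96 and 1.05, with a difference of -0.09 (adjusted p = 0.641).

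A test of the difference itself, (F_G minus G) minus (F_P minus P) in a fit of all 12 libraries, called 5728 of 28339 genes (20.2%), 2900 higher (10.2%) and 2828 lower (9.98%). The lists hold genes that the study chose as changed in F_P vs. F_G or P vs. G, and this difference is made up of the same values. List counts above the shares over all genes therefore follow in part from that choice and stand as a description. The difference was called lower for 17 of 23 antenna proteins and higher for 0, with a median of -1.38, and lower for 15 and higher for 3 of 39 photosynthesis genes. Antenna protein genes had 0 higher and 2 lower calls in F_P vs. P. In plant-pathogen interaction the difference was higher for 30 and lower for 10 of 59 genes, and in ribosome biogenesis it was higher for 9 and lower for 1 of 20. Since the other cultivar is L2025 in one comparison and QHP in the other, the cultivar and the leaf color cannot be told apart in these differences.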

How the data were processed

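RNA-seq of 12 leaf libraries was used, 3 each of F_G, G, F_P and P, grouped by the sample labels. The authors prepared the libraries with random priming for paired-end sequencing, mapped the reads with Hisat2, assembled transcripts with StringTie (versions not given in the sources used here), and deposited FPKM per gene and library. The build of the deposited annotation is not named in it, and coordinates are those it gives. FPKM multiplied by exon length gave whole fragments (within 0.02) for 100% of the values checked. As FPKM are not counts, limma 3.58.1 (trend; R 4.3.3) was run on log2(FPKM + 1), keeping a gene where 3 or more libraries had 1 FPKM or more. Benjamini-Hochberg adjusted p up to 0.05 with a log2 fold change of 1 or more in size defined DEGs, as in the study. The procedure was tested on simulated data. Tables were made with Python 3.11.15, pandas 2.3.3 and numpy 2.4.6.

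The comparison, the lists and the tests were chosen with earlier results of these data known. Gene names and lists come from the study's supplementary tables, whose pathway tables could be read only in part. None of the gene identifiers could be paired with the reference gene table, so that no sequence is shown. Named were all structural genes that were called, *PdeMYB1*, *PdeMYB2*, the called MYB and bHLH genes, from each pathway list called genes with the largest rise and fall (up to 2 per direction, no overlap between the groups, averaging 10 FPKM or more), the 2 largest rises and falls over all genes, and the most abundant gene of each list used to check the tissue. Alternatives were scaling by median of ratios or by library totals, no filter, a pseudocount of 0.1, no minimum fold change, voom on recovered fragments, all 12 libraries in 1 fit, a replicate block, and each library left out.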

Additional observations from a re-analysis of the deposited data

Results flagged for a closer look

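The results below stand out because the difference of ZSY from the other cultivar was not the same in green leaves (F_G vs. G) and in purple leaves (F_P vs. P), by a test of the difference itself in limma. The other cultivar is L2025 in green leaves and QHP in purple leaves, so the differences do not separate color from cultivar. Values are (F_G minus G) minus (F_P minus P) on log2(FPKM + 1), and a negative value means that ZSY stood lower in the green comparison. In all, 5728 of 28339 genes (20.2%) had such a difference. The pathway genes and the genes with the largest rise or fall were named for their F_G and G values, which enter this difference. The structural, MYB and bHLH genes were chosen by the study on these libraries. Large values below follow in part from these choices.

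Among the structural genes, the difference was positive for *PdeF3'5'H2* (2.77), *PdeCHS4* (1.34) and *PdeF3H2* (1.23). It was negative for *PdeANS1* (-2.25), *PdeUFGT2* (-2.08), *PdeFLS2* (-1.65), *PdeF3H1* (-1.55), *PdeANS2* (-1.54), *PdeUFGT1* (-1.34), *PdeCHS5* (-1.29) and *PdeANS4* (-1.24). *PdeANS1* had 5.22 ± 1.59 FPKM in F_G and 11.1 ± 1.51 FPKM in G, and a mean of 8.05 FPKM in F_P and 2.78 FPKM in P (SD, n = 3 each). *PdeFLS2* averaged 17.5 FPKM in F_G and 105 FPKM in G, and 63.4 FPKM in F_P and 116 FPKM in P. Of the MYB and bHLH genes, *Podel.02G040700* (2.29), *Podel.15G110700* (1.91) and *Podel.01G109500* (1.28) had positive differences, and *Podel.07G028600* (-1.08) had a negative one.

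In the photosynthesis and pigment lists, negative differences were those of *Podel.02G264100* (-5.31), *Podel.05G255100* (-1.61), *Podel.01G417400* (-1.52) and *Podel.02G209300* (-1.01), and *Podel.04G242000* had a positive one (2.73). In the cutin, suberine and wax list they were -1.38 for *Podel.02G044500* and -1.29 for *Podel.08G032700*. In the nitrogen list *Podel.02G096300* had 4.23 and *Podel.10G024300* had -1.05. In the starch and sucrose list *Podel.08G094600* had 3.05 and *Podel.01G095700* had -3.14. In the phenylpropanoid list *Podel.07G018500* had 1.43 and *Podel.02G017400* had -3.42. In the hormone list *Podel.03G179200* had 3.18 and *Podel.05G231000* had -1.90. In the plant-pathogen list *Podel.01G144900* had 3.00 and *Podel.06G230300* had -2.47. In protein processing *Podel.10G198400* had 2.43 and *Podel.08G067300* had -2.18.

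Among the genes with the largest rise or fall, the differences were 5.62 and 3.85 for both rises outside the annotation, -7.61 for *Podel.13G181500* and -7.40 for the fall outside the annotation. These 4 genes are at or near 0 in 1 or more groups, so that these values depend on the pseudocount.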

How the results depend on the processing

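The number of DEGs in F_G vs. G was 5332, and it lay between 5284 and 6454 under both other scalings, no filter, a pseudocount of 0.1, voom and all 12 libraries in 1 fit, and between 4544 and 4869 with 1 library left out. With no minimum fold change there were 13133 DEGs (5884 higher and 7249 lower in F_G), 22 structural genes, 431 genes of the pathway lists, 4794 genes called in the same direction in F_P vs. P, and 12857 genes with a called difference between the comparisons. With a minimum of 0.5 FPKM, 158 genes were at 0 in G alone and 215 at 0 in F_G alone; with 5 FPKM these were 29 and 38. Scaling by library totals moved the median of all genes by 0.12 on the log2 scale to 0.08, and DEGs were then 2884 higher and 2400 lower in F_G. Under it *PdeCHS3* (0.0498), *PdeF3'H1* (0.0321) and *PdeANS3* (0.0484), none of them DEGs, changed sign; the cause was not tested. With 1 library left out, *PdeCHS3* lay between -0.1836 and 0.0423 (positive without G replicate 1) and *PdeANS3* between -0.2174 and 0.1322 (positive without F_G replicate 1). Leaving out an F_G library lowered the genes called higher to between 1908 and 1997, and leaving out a G library lowered those called lower to between 2057 and 2111, since a gene seen in 1 group alone then cannot reach 3 libraries. For the same reason *PdeCHS5* and *PdeUFGT2* had no value without a G library, and genes outside the annotation, which have no length, had none with voom. With 11 to 16 structural genes called over these fits, *PdeF3H4* was among those lost. Of 79 named genes tested, 65 kept their call and direction under every alternative with a minimum fold change in which they could be tested, and 59 did so with no minimum as well, where 10 further named genes were called. Replicate numbers did not pair the samples: deviations of same-numbered F_G and G libraries correlated at -0.06, -0.11 and -0.25 across genes. Those of libraries with other numbers correlated at -0.10 to 0.17. With the replicate number as a block there were 5310 DEGs, 2488 higher and 2822 lower. Genes called in opposite directions in F_P vs. P, 185, were 306 with a pseudocount of 0.1, 314 with voom and 2118 with no minimum fold change. Genes that did not reach 1 FPKM in 3 libraries were not tested, and few fragments limit the precision of genes that did so in 1 group alone.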
